A study of Danio rerio with 32 samples.

Results

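Annexins are cytosolic proteins that bind acidic phospholipids in membranes when calcium rises. Several of them gather at torn membranes and help to reseal them, and annexin A2 does so with an S100 protein partner. In the nervous system they are made by glia, immune cells and some neurons. The annexin genes were examined here in zebrafish V2a interneurons, excitatory spinal neurons that drive swimming. Members were taken as every row of the deposited table whose Ensembl ID carries 1 of 10 listed annexin names, where a name without its a or b ending counted for all its paralogues. That rule found 12 genes among 42370, of which 29178 had a symbol.

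The cells came from a transgenic line with a green reporter driven in V2a interneurons, and from spinal segments 1 to 7 rostral to the lesion. Rhodamine dextran, which axons carry back to the cell body, divided the reporter-positive cells into traced cells, called D, and cells without tracer, called G; after injury the traced cells are those with a regrown axon. The D libraries numbered 5 from uninjured fish (Dcon), 5 at 3 weeks after spinal cord injury (D3W) and 6 at 8 weeks (D8W). The G libraries numbered 6 from uninjured fish (Gcon), 5 at 3 weeks (G3W) and 5 at 8 weeks (G8W). All groups share the reporter line, and each condition drew on the tissue of 20 fish. Whether the libraries of 1 group hold different fish is not stated, so p-values here cover the spread from library to library, part or all of which may be technical. All levels are given as FPKM (fragments scaled to gene length and to the library total), which allows comparison between genes.

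Library totals, recovered from the steps between FPKM values, ran between 13.2 and 27.7 M fragments, and 3 fragments in a gene of 1 kb equalled 0.108 to 0.228 FPKM. Such floors cover counting error only. 2 sets of libraries stood apart: D3W replicates 3 and 5 had 7755 and 8710 genes at 1 FPKM or more, against 10929 to 18414 in the other libraries, and D8W replicates 1 and 6 carried most of the annexin signal of their group. D8W replicate 2 had even fragment numbers in 87.4% of its values, against 48.1% to 50.6% in the other 31 libraries. In this library alone, 15% of fragment numbers were not whole at first, so its inferred total was multiplied by 2. Whole numbers become even in that step, so the high share of even values follows from it. Its total of 18.8 M fragments includes the factor and would be below 13.2 M without it. Why this library differed, and which total is right, was not tested. Of the V2a and neuron markers, the neuronal gene ELAVL3 was above 0 in every library at 81.5 FPKM or more. Markers of other cells were also present: mbpa, a myelin gene, was at 922 FPKM or more in every library, and apoeb, a gene of microglia, at 15.3 FPKM or more. In these bulk samples fewer cells of a type and less RNA per cell cannot be told apart.

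The 12 genes were ANXA1 (ENSDARG00000026726), anxa1c, ANXA2 (ENSDARG00000003216), anxa2b, ANXA3 (ENSDARG00000009196), anxa3b, ANXA4, anxa5b, ANXA6, 2 rows named ANXA11 (ENSDARG00000002632 and ENSDARG00000077383) and anxa13. Capitals follow the gene-name table, in which a and b paralogues are not told apart for the capitalised names. Of the 12, 9 reached 1 FPKM in at least 5 libraries and were tested. The other 3 were hardly detected: ANXA3 was above 0 in 1 of 32 libraries, at 0.292 FPKM. anxa2b had 24 fragments over all libraries with a highest level of 0.541 FPKM. anxa1c had 113 fragments with a highest level of 3.68 FPKM in G3W replicate 5. The table held 5 further annexin symbols outside the rule, of which only anxa13l was tested, and anxa14, anxa1b, anxa1d and anxa5a were not.

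Averaged over the 32 libraries, ANXA2 was the highest member at 110 FPKM, followed by anxa13 at 41.8, the ANXA11 row ENSDARG00000002632 at 37.5 and anxa3b at 31.0 FPKM. The mean of ANXA2 rested on few libraries: its median over the 32 was 17.6 FPKM. ANXA1 averaged 18.04 FPKM, the other ANXA11 row 10.3, and ANXA4, ANXA6 and anxa5b 7.58, 7.56 and 7.30 FPKM. anxa13 was detected in 32 of 32 libraries, and ANXA11 (ENSDARG00000002632) in 31. The remaining tested members were each at 0 in 2 to 10 libraries, so that most annexins were present in some libraries of a group and absent in others.

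The summed FPKM of the 12 genes had a median of 161 in Dcon, 268 in D3W and 160 in D8W, and of 133 in Gcon, 255 in G3W and 178 in G8W. The lowest and highest library sums were 121 and 265 in Dcon, 151 and 324 in D3W, 39.7 and 1536 in D8W, 58.7 and 283 in Gcon, 91.1 and 327 in G3W, and 83.8 and 464 in G8W. The group ranges overlapped throughout. The leading gene differed between groups: ANXA11 (ENSDARG00000002632) or anxa13 was the highest member in every Dcon library, while ANXA2 led in 3 of 5 D3W and 4 of 5 G3W libraries. Over all 32 libraries ANXA2 led in 11, ANXA11 (ENSDARG00000002632) in 9, anxa13 in 6, anxa3b in 5 and ANXA1 in 1.

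ANXA1 encodes annexin A1, which in mammals limits inflammation through formyl peptide receptors and also takes part in membrane resealing. Its level was 36.1, 3.89, 47.0, 24.4 and 37.2 FPKM in D3W replicates 1 to 5, against 0, 0, 1.65, 0 and 0.403 FPKM in Dcon replicates 1 to 5. Every D3W library was above every Dcon library, which held for 0.603% of the 22552 genes tested. These values rest on 67 to 867 fragments per D3W library, against 0 to 30 in Dcon. With limma on log2(FPKM + 1) after median-ratio scaling, ANXA1 rose in D3W by 4.36 on the log2 scale (SE 1.09, 95% interval 2.16 to 6.57, adjusted p = 0.0438 over all genes). That made 1 of 9 tested members called in D3W against Dcon, beside 0.789% of all genes called in either direction and 0.492% called higher. The call is at the edge of the threshold: it was lost in 8 of the 10 fits that left out 1 of these 10 libraries, with adjusted p between 0.0107 and 0.114. Without both D3W libraries with the fewest genes the difference was 3.63 with an adjusted p of 0.342.

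In D8W, ANXA1 had a lowest level of 0, a median of 14.0 and a highest of 134 FPKM, and 5 of the 6 D8W libraries were above every Dcon library. The difference between D8W and Dcon was 3.65 on the log2 scale (SE 1.04, adjusted p = 0.171), and 2.09 (adjusted p = 0.605) without D8W replicates 1 and 6. In G cells the libraries before and after injury overlapped. ANXA1 was at 18.9, 0.906, 0.220, 4.47 and 10.3 FPKM in G3W replicates 1 to 5, against a lowest level of 0, a median of 14.3 and a highest of 26.9 FPKM in Gcon. The limma difference of G3W and Gcon was -0.61 (95% interval -2.72 to 1.50), and that of G8W and Gcon -0.57 (-2.68 to 1.53). Among uninjured cells ANXA1 was lower in Dcon than in Gcon by point estimate, with a difference of -2.24 (SE 1.04, unadjusted p = 0.0381, adjusted p = 0.436). The change in D cells minus the change in G cells was 4.98 at 3 weeks (SE 1.50, unadjusted p = 0.00213) and 4.22 at 8 weeks (SE 1.47, unadjusted p = 0.00682), and neither passed over all genes (adjusted p = 0.698 and 0.987).

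ANXA2 encodes annexin A2, which links membranes to actin and forms a complex with the S100A10 protein in mammals. It was at 181, 14.1, 29.3, 96.7 and 76.5 FPKM in D3W replicates 1 to 5, against 15.0, 0, 3.85, 0 and 9.01 FPKM in Dcon. The D3W and Dcon libraries overlapped only through D3W replicate 2 and Dcon replicate 1. In the cells without tracer it was at 158, 139, 18.04, 72.5 and 118 FPKM in G3W replicates 1 to 5, against a lowest level of 0, a median of 3.05 and a highest of 31.2 FPKM in Gcon. At 8 weeks G8W had 64.0, 142, 6.50, 13.0 and 26.3 FPKM. The D3W and G3W libraries overlapped, with a difference of 0.11 on the log2 scale (95% interval -2.63 to 2.85), and the uninjured libraries were low in both D and G.

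The limma difference of ANXA2 was 4.16 on the log2 scale in D3W against Dcon (SE 1.35, unadjusted p = 0.00396, adjusted p = 0.134) and 4.12 in G3W against Gcon (SE 1.29, unadjusted p = 0.00298, adjusted p = 0.379). Neither passed over all genes. With D8W replicates 1 and 6 left out of the shared fit the D3W difference had an adjusted p of 0.0301 and the G3W difference one of 0.0698. Those libraries were picked after their high ANXA2 was seen, and they belong to none of the groups compared here. Leaving them out kept both differences and changed only the shared spread, so the lower adjusted p adds no support. G8W and Gcon differed by 2.92 (SE 1.29, adjusted p = 0.729). The 3-week change in D cells minus that in G cells was 0.04 (95% interval -3.76 to 3.84), an interval that leaves room for large differences in either direction. Background shares of called genes were 0.0931% in G3W against Gcon and 0.0310% in G8W against Gcon, and 0 of 9 members were called in each.

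In D8W the level of ANXA2 split the libraries: it was 1014 and 1224 FPKM in replicates 1 and 6, and 17.3, 19.2, 0.451 and 0.493 FPKM in replicates 2 to 5. ANXA2 made up 66.1% and 82.1% of the annexin FPKM of replicates 1 and 6. Against Dcon the D8W difference was 3.32 (SE 1.29, adjusted p = 0.339), and 0.70 (adjusted p = 0.920) without these replicates. ANXA1 was also highest of all 32 libraries in these libraries, at 107 and 134 FPKM. anxa5b, at 29.6 and 48.1 FPKM there, gave ranks 3 and 2 of 32. Some markers of other cells were also high there, and others were not. The keratin genes krt8 and krt18a.1 of the epithelial and skin list ranked first and second of 32. The summed list reached 766 and 548 FPKM against a D8W median of 75.0 FPKM. Of the 9 markers found of that list, krt5 was at 0 in all 6 D8W libraries, and krt4 and cldne in 5 of 6. The endothelial and mural list summed to 157 and 177 FPKM there (D8W median 25.8), the 2 highest sums of the 32 libraries, the astroglia and ependymal list to 6045 and 2984 FPKM (D8W median 1296), and the fibroblast and meningeal list to 376 and 80.0 FPKM (D8W median 29.96). The microglia and macrophage list was at 8993 FPKM in replicate 1 and at 204 FPKM in replicate 6 (D8W median 1420.05). Of the 13 genes found of the oligodendrocyte and Schwann list, mbpa had ranks 24 and 30 and cldnk ranks 23 and 25 of 32 in replicates 1 and 6. Low mbpa and cldnk were not particular to them: replicate 5 had the lowest mbpa of D8W, at 922 FPKM, and replicate 4 the lowest cldnk, at 188 FPKM. Another gene of the list, PMP22, had a D8W median of 17.3 and a highest level of 300 FPKM. The whole list summed to between 2240 and 9483 FPKM over D8W (median 4178). Neuronal ELAVL3 had ranks 31 and 27 in replicates 1 and 6, at 98.6 and 127 FPKM. This too was not particular to them, as all D8W libraries were at 203 FPKM or less and replicate 3 was at 111 FPKM. The part of these cells in the annexin levels was not tested.

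**Figure D1:**
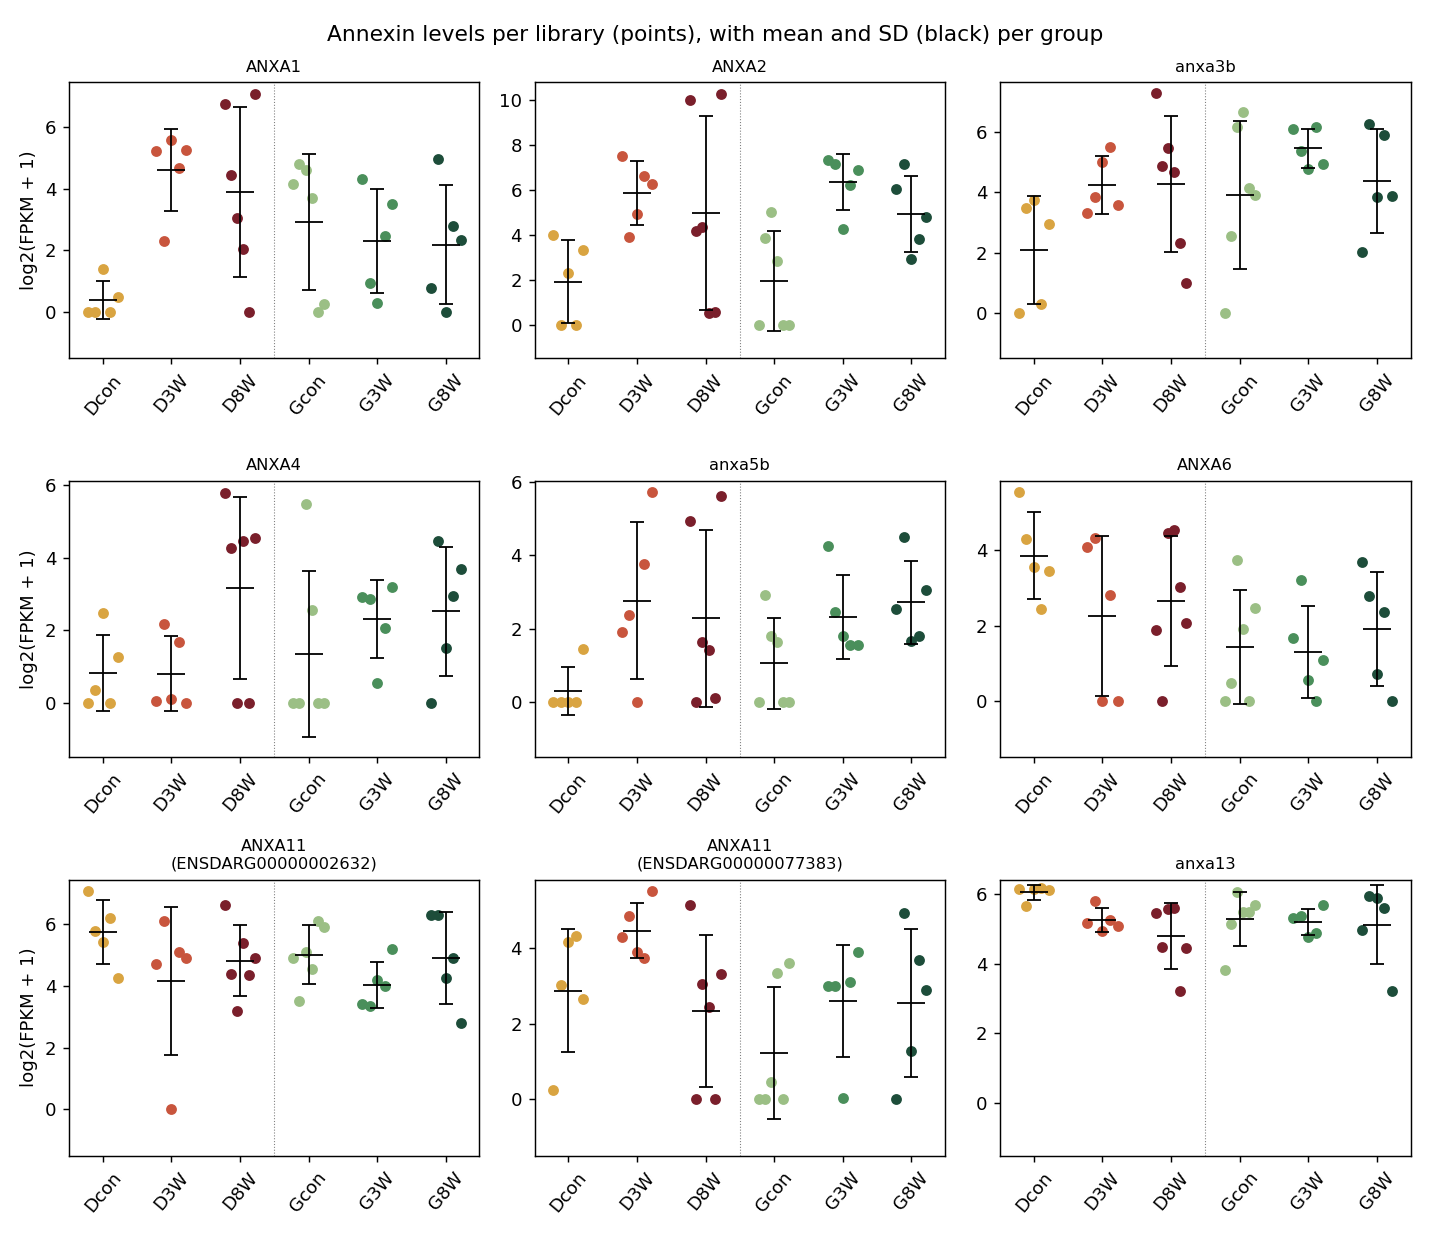
Levels of the 9 tested annexin genes as log2(FPKM + 1) (vertical axes) in the 6 groups (horizontal axes); each point is 1 library and the black bars give the mean and SD of a group. ANXA1 is near 0 in the 5 Dcon libraries and above 3 FPKM in all 5 D3W libraries, while ANXA2 in D8W falls into 2 libraries at 1014 FPKM or more and 4 at 19.2 FPKM or less.

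anxa5b encodes an annexin A5, which binds phosphatidylserine and forms lattices on membranes. It was at 2.79, 4.20, 0, 12.7 and 52.0 FPKM in D3W replicates 1 to 5, against 0 in Dcon replicates 1 to 4 and 1.75 FPKM in Dcon replicate 5. Thus 4 of 5 D3W libraries were above every Dcon library, with D3W replicate 3 at 0. The difference was 2.53 (SE 0.96, unadjusted p = 0.0121, adjusted p = 0.221), which did not pass. In D8W it was 2.12 (SE 0.92, adjusted p = 0.393), and 0.57 (adjusted p = 0.918) without replicates 1 and 6. anxa5b was detected in all 5 G3W libraries at 1.92 to 18.01 FPKM and all 5 G8W libraries at 2.19 to 21.6 FPKM, against 3 of 6 Gcon libraries with a highest level of 6.60 FPKM. Those differences were 1.06 and 1.59 on the log2 scale, and neither passed (adjusted p = 0.903 and 0.852).

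anxa3b is a paralogue of annexin A3, known in mammals from neutrophils and microglia. Its level was 8.84, 13.4, 31.1, 43.8 and 10.9 FPKM in D3W replicates 1 to 5, against 0, 10.03, 12.2, 0.220 and 6.70 FPKM in Dcon. The D8W libraries had a lowest level of 0.980, a median of 26.3 and a highest of 153 FPKM. The differences from Dcon were 2.39 in D3W (SE 1.00, unadjusted p = 0.0225, adjusted p = 0.286) and 2.44 in D8W (SE 0.96, unadjusted p = 0.0156, adjusted p = 0.345), and both ranges overlapped that of Dcon. In the cells without tracer it averaged 46.6 ± 20.8 FPKM in G3W (SD, n = 5) and 34.4 ± 41.0 FPKM in Gcon (SD, n = 6), a difference within the spread. Of the 2 neutrophil markers found, lyz was at 0 in all D3W, D8W and Dcon libraries, and mmp13a was above 0 in 1 of 5 D3W libraries (2.68 FPKM), 2 of 6 D8W libraries (0.727 FPKM at most) and no Dcon library.

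ANXA4 encodes annexin A4, which aggregates membranes and is known in mammals from epithelia. It was below 5 FPKM in every Dcon and D3W library: Dcon libraries had 0, 0.284, 4.54, 0 and 1.42 FPKM, D3W libraries 0.0267, 3.53, 0.0818, 2.17 and 0 FPKM, and D8W libraries a lowest level of 0, a median of 19.5 and a highest of 54.1 FPKM. In D8W, 4 of 6 libraries were above every D3W and every Dcon library, and the other 2 were at 0. The D8W difference was 2.50 against Dcon (SE 0.96, unadjusted p = 0.0135, adjusted p = 0.333) and 2.45 against D3W (SE 0.96, unadjusted p = 0.0154, adjusted p = 0.458). Neither passed, and without D8W replicates 1 and 6 they were 1.44 and 1.38. Both comparisons share the D8W libraries. In D8W against Dcon 0 of 9 members were called, beside 0.0621% of all genes, and in D8W against D3W 0 of 9, beside 0.0399%.

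ANXA6 encodes annexin A6, a long annexin with a duplicated core. Here the highest levels were in uninjured traced cells, with 46.3, 18.8, 10.7, 4.40 and 9.84 FPKM in Dcon replicates 1 to 5, against a lowest level of 0, a median of 1.56 and a highest of 12.3 FPKM in Gcon. Dcon was higher than Gcon by 2.43 as a point estimate (SE 0.86, 95% interval 0.69 to 4.16, unadjusted p = 0.00747, adjusted p = 0.257). After injury the D and G libraries overlapped, with 15.9, 19.1, 0, 6.06 and 0 FPKM in D3W against 2.16, 8.19, 0.451, 0 and 1.11 FPKM in G3W. The difference of D3W and Dcon was -1.45 (95% interval -3.26 to 0.37).

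The 2 ANXA11 genes are paralogues of annexin A11, which in mammalian neurons tethers RNA granules to lysosomes that travel along axons. ENSDARG00000002632 was the more abundant, with 134, 53.3, 42.0, 71.9 and 18.2 FPKM in Dcon, against 28.7, 10.3, 32.9, 22.1, 67.9 and 58.4 FPKM in Gcon. It had 25.0, 67.5, 0, 32.8 and 28.8 FPKM in D3W. All 9 pairwise differences of this gene had unadjusted p above 0.1, the largest in size being -1.33 in D3W against Dcon (95% interval -2.94 to 0.29). ENSDARG00000077383 had its highest group level in D3W, with 18.7, 28.1, 13.9, 12.4 and 45.0 FPKM, against 0.177, 7.15, 16.9, 19.0 and 5.32 FPKM in Dcon and 7.04, 7.05, 0.0290, 7.65 and 14.0 FPKM in G3W. Its difference was 2.30 in D3W against G3W (SE 0.94, unadjusted p = 0.0191, adjusted p = 0.260) and -2.13 in D8W against D3W (SE 0.90, unadjusted p = 0.0231, adjusted p = 0.489). Both comparisons share the D3W libraries, and neither passed. In D3W against G3W 0 of 9 members were called, beside 1.29% of all genes.

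anxa13 belongs to the annexin A13 group, thought to be the founding branch of the vertebrate family and known in mammals from gut epithelium. It was the steadiest member, with a coefficient of variation within groups of 13.5% in Dcon to 53.4% in G8W. Its level was 68.8, 49.6, 69.5, 70.5 and 67.9 FPKM in Dcon, against a lowest level of 13.1, a median of 43.5 and a highest of 65.4 FPKM in Gcon. That difference was 1.05 (SE 0.46, unadjusted p = 0.0269, adjusted p = 0.396). All 6 D8W libraries, at 8.28 to 46.9 FPKM, were below every Dcon library, which held for 1.45% of genes on the deposited scale. On the scaled values the ranges overlapped, at 11.1 to 50.9 in D8W against 40.0 to 63.6 in Dcon, and the limma difference was -0.84 (SE 0.46, adjusted p = 0.515). In Dcon against Gcon 0 of 9 members were called, beside 0.288% of all genes.

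anxa13l, another A13-like gene that the rule did not name, was the most abundant annexin in the table, averaging 138 FPKM over the 32 libraries. It was at 282, 115, 100.2, 564 and 84.5 FPKM in Dcon, against a lowest level of 0.0943, a median of 37.9 and a highest of 64.6 FPKM in Gcon. The groups did not overlap, also on scaled values, which in this direction held for 0.244% of genes. anxa13l was higher in Dcon by 3.64 on the log2 scale (SE 0.71, adjusted p = 0.0136). The adjusted p was 0.119 with only Dcon and Gcon in the fit and at most 0.0834 when Dcon replicate 1 or 4 was left out. The difference of D3W and G3W was 2.22 (SE 0.74, adjusted p = 0.147), at 96.0 to 363 FPKM in D3W against 36.9 to 111 FPKM in G3W. At 8 weeks the difference of D8W and G8W was 1.18 (SE 0.71, adjusted p = 0.797). By limma, G3W and G8W were above Gcon by 2.11 and 2.52 (unadjusted p = 0.00519 and 0.00109, adjusted p = 0.450 and 0.353). D3W and D8W differed from Dcon by 0.69 and 0.05. The 8-week change in D minus that in G was -2.46 (unadjusted p = 0.0189, adjusted p = 0.987).

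**Figure D2:**
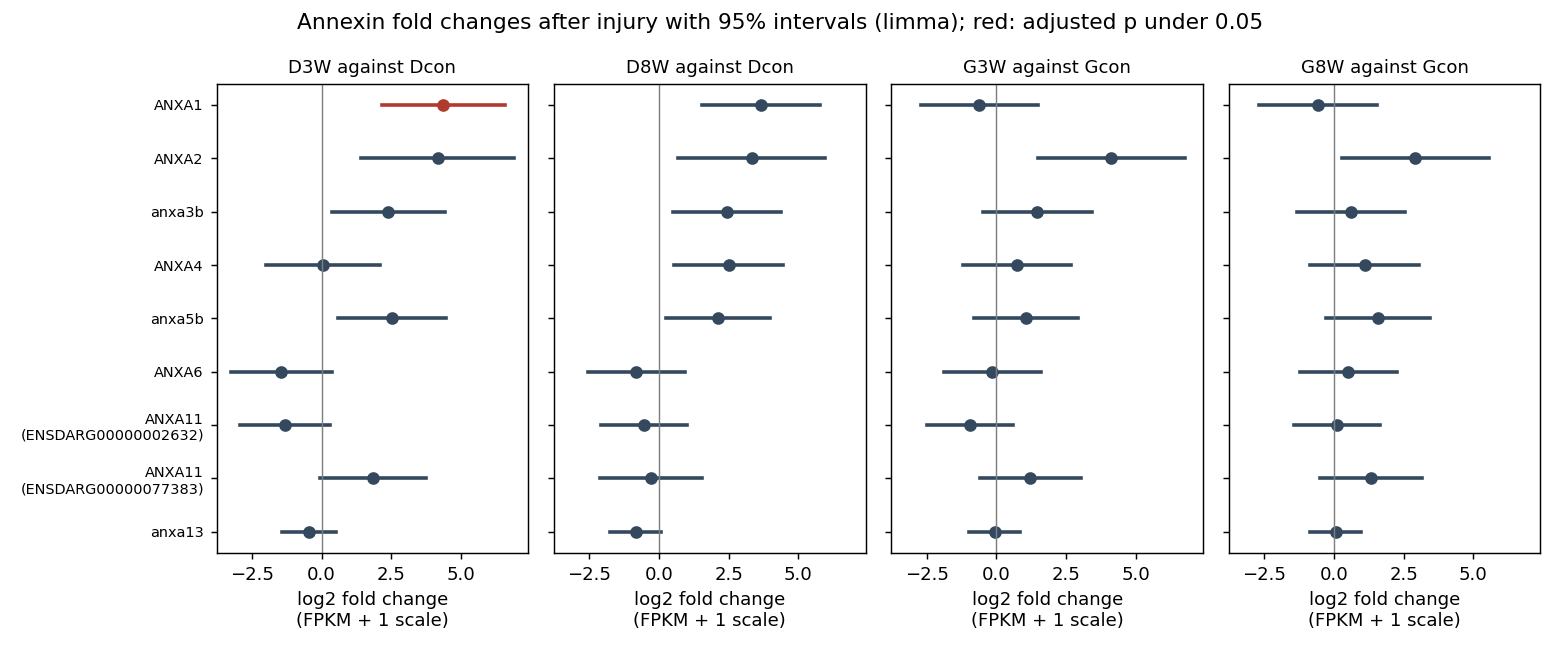
Log2 fold changes of the 9 tested annexins (rows) after injury against uninjured cells of the same kind, from limma on scaled log2(FPKM + 1); points are estimates and lines 95% intervals. ANXA1 in D3W against Dcon, at 4.36, is the only member with an adjusted p under 0.05, and ANXA2 is above 0 at 2.92 to 4.16 in all 4 comparisons with intervals that exclude 0.

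Taking the 9 members over all comparisons, 1 passed in D3W against Dcon and none in the other 8 pairwise comparisons or in either interaction. At an unadjusted p under 0.05 there were 4 of 9 members in D3W against Dcon, beside 12.5% of all genes, and 5 of 9 in D8W against Dcon, beside 10.8%. There were 2 in D8W against D3W, 1 in G3W against Gcon, 1 in G8W against Gcon, 2 in D3W against G3W and 3 in Dcon against Gcon, beside 9.18%, 7.01%, 6.28%, 13.4% and 10.6% of all genes. In G8W against G3W and D8W against G8W there were 0, beside 3.17% and 6.98%, and called genes were 0.00443% and 0.0665% of all. Each interaction had 1 member (ANXA1) at that level, beside 5.62% and 4.55%, with called genes at 0.00443% at 3 weeks and none at 8 weeks.

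The median difference of the members was 1.85 in D3W against Dcon and 2.12 in D8W against Dcon, beside 0.01 and 0.19 over all genes tested. It was 0.74 in G3W against Gcon and 0.61 in G8W against Gcon, beside 0.14 and 0.08 over all genes. Medians of marker lists in D3W and D8W against Dcon were 2.32 and 2.19 for the 4 epithelial and skin genes tested. They were 1.65 and 1.08 for oligodendrocyte and Schwann, 1.21 and 1.59 for astroglia and ependymal, and 0.65 and 1.04 for endothelial and mural genes. Fibroblast and meningeal genes were at 0.16 and 0.86, and microglia and macrophage genes at -0.52 and 0.26. V2a and neuron genes were at -0.59 and -0.51, and erythrocyte genes at -0.69 and -0.83. The D8W median of 2.12 is the estimate of anxa5b, which was 0.57 without D8W replicates 1 and 6. Without them ANXA2 was at 0.70, ANXA4 at 1.44, ANXA1 at 2.09 and anxa3b at 2.51. These are also the members with an unadjusted limma p under 0.05 in D8W against Dcon. By limma, ANXA1, ANXA2, anxa3b and anxa5b lay above 0 in both D comparisons with injury. ANXA4 was at 2.50 in D8W but at 0.05 (SE 1.00) in D3W, which is no sign of a change there. ANXA6, ANXA11 (ENSDARG00000002632) and anxa13 lay below 0 in both, none with an unadjusted p under 0.05. In D3W against Dcon 6 of 9 members were above 0, beside 50.9% of all genes. In D8W against Dcon it was 5 of 9, beside 60.8%. The 2 comparisons share the Dcon libraries. Group means in order of size differed between neighbours by more than the larger of the 2 SDs in 5 of 45 neighbouring pairs, among them Dcon above Gcon for anxa13 and D3W above Gcon for ANXA1. All other neighbours in the order of a member were within that spread.

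Across the 32 libraries the members did not vary as a block. Pearson correlations of log2 scaled values had a median of 0.25 over 36 pairs, with 7 pairs below 0 and 5 at 0.50 or more. The highest were ANXA2 with anxa5b (r = 0.78, Spearman 0.73) and ANXA1 with ANXA2 (r = 0.71, Spearman 0.71), and these held after group means were taken out (0.72 and 0.79). The lowest was anxa3b with ANXA11 (ENSDARG00000002632), at -0.27. These are descriptions over libraries that share depth, scaling and cell makeup.

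The genes most like the 3 highest members by Pearson correlation over the 32 libraries were taken from 8113 candidates. For ANXA2 they included RGCC (0.83), anxa5b (0.78) and SOX2 (0.77). RGCC, a cell-cycle regulator induced by complement in mammals, ranged between 0 and 570 FPKM, and D8W replicates 1 and 6 ranked first and sixth for it. SOX2 is a transcription factor of neural stem cells and astroglia. For anxa13 the closest genes were PFN2 (0.77), ABCE1 (0.77), EXT2 (0.74) and a row of HSPA8 (0.74). PFN2 encodes a neuronal profilin and ABCE1 a ribosome recycling factor. For ANXA11 (ENSDARG00000002632) they were WDR13 (0.79), PUF60 (0.79), COPG2 (0.78) and LANCL1 (0.78).

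Annexin A2 and other annexins work with small S100 proteins. Of 14 S100 genes found, 8 were tested, and 3 rose in D3W against Dcon and in D8W against Dcon: icn, s100a10b and S100B. Over all genes 0.492% were called higher in D3W against Dcon, and 0.0621% were called in D8W against Dcon in either direction. s100a10b, the zebrafish counterpart of the partner of annexin A2, was at 734, 64.5, 185, 734 and 1573 FPKM in D3W, against 0, 0, 10.3, 0 and 44.0 FPKM in Dcon. It rose by 7.03 (SE 0.94, adjusted p = 0.000157) in D3W and by 6.23 (SE 0.90, adjusted p = 0.000847) in D8W, and limma-voom on recovered fragments gave adjusted p = 0.143 and 0.199. In untraced cells its limma difference from Gcon was 2.26 in G3W and 2.43 in G8W (adjusted p = 0.577 and 0.588). Those of icn were 2.29 and 2.16, those of S100B 2.33 and 2.95, and none was called. For s100a10b, D3W against G3W was at 1.14, D8W against G8W at 0.17 and Dcon against Gcon at -3.63 (adjusted p = 0.635, 0.989 and 0.0727). With voom icn was not called either (adjusted p = 0.474 in D3W and 0.485 in D8W). The D8W call of S100B (5.13 on the log2 scale, adjusted p = 0.0455) was lost in 17 of 22 alternatives, and without D8W replicates 1 and 6 the difference was 3.88 (adjusted p = 0.263). Its D3W call (5.78, adjusted p = 0.00832) was lost in 2 of 21 alternatives, voom among them (adjusted p = 0.378). s100a10a was above 0 in 3 of 32 libraries, at 4.31 FPKM or less, and was not tested. s100a11, the partner of annexin A1 in mammals, averaged 0.825 ± 1.85 FPKM in D3W and 5.27 ± 6.98 FPKM in Dcon (SD, n = 5 each) and was not called. icn alone was called in Dcon against Gcon, where it was lower by 4.67 on the log2 scale (SE 1.01, adjusted p = 0.0362). That call was lost in 13 of 22 alternatives, and 0.288% of all genes were called in Dcon against Gcon. The median of the 8 genes was 2.26 in D3W against Dcon, beside 0.01 over all genes.

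ANXA2 and s100a10b varied together over the 32 libraries (r = 0.71, Spearman 0.81, and 0.60 with group means taken out). ANXA2 and krt8 did so to a like degree (r = 0.74, Spearman 0.76). In D8W replicates 1 and 6, which had the highest ANXA2, s100a10b was at 900 and 353 FPKM, ranks 2 and 10 of 32. krt8, a simple-epithelium keratin, was also higher in D3W than in Dcon, by 4.43 on the log2 scale (SE 0.94, adjusted p = 0.0175), at 42.7 to 137 FPKM in D3W against 0 to 68.3 FPKM in Dcon. The summed epithelial and skin list ranged over 73.0 to 226 FPKM in D3W against 0 to 122 FPKM in Dcon, and its markers krt4, krt5, cldne and cdh1 were each at 0 in at least 4 of 5 D3W libraries. The 15 microglia and macrophage markers found summed to between 674 and 12559.7 FPKM in D3W, against 665 to 3492 FPKM in Dcon, with apoeb at 4269.8 ± 4372 FPKM in D3W and 443 ± 384 FPKM in Dcon (SD, n = 5 each), and c1qa was at 0 in 4 of 5 D3W and 5 of 5 Dcon libraries. The median difference of these 15 genes was -0.52 on the log2 scale, with 0 called in either direction. In the oligodendrocyte and Schwann list 1 of 13 tested genes was called, the myelin protein gene PMP22, at 50.6 ± 33.8 FPKM in D3W and 2.63 ± 4.33 FPKM in Dcon (SD, n = 5 each), higher by 4.43 on the log2 scale (SE 1.05, adjusted p = 0.0337). In the astroglia and ependymal list it was 1 of 13, S100B. Over all genes 0.789% were called in D3W against Dcon in either direction. The part of these cells in the rise of ANXA1 was not tested.

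**Figure D3:**
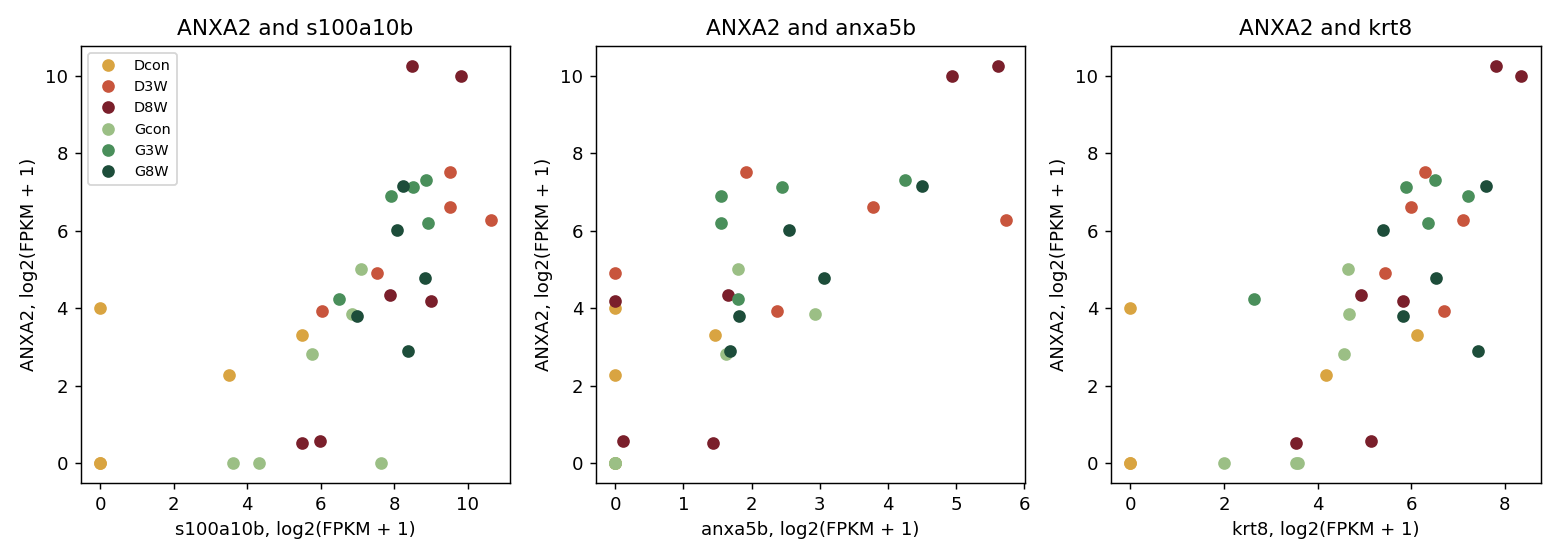
ANXA2 (vertical axes) against s100a10b, anxa5b and krt8 (horizontal axes), all as log2(FPKM + 1), with 1 point per library coloured by group. The D8W libraries 1 and 6 lie at the top of each panel, and Dcon replicates 2 and 4 lie at 0 on both axes of each panel.

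Among 28 tested genes of membrane repair and annexin partners only DYSF passed. It encodes dysferlin, which acts with annexins in membrane resealing in mammalian muscle. Its level was 6.33, 1.75, 5.22, 1.45 and 5.90 FPKM in D3W, against 0, 1.09, 0.0155, 0.383 and 0.555 FPKM in Dcon, with no overlap. Every D3W library above every Dcon library held for 0.603% of the genes tested. DYSF rose by 1.91 (SE 0.48, adjusted p = 0.0461), beside 0.492% of all genes called higher in D3W against Dcon. That call was lost in 18 of 21 alternatives. The median of the 28 genes was 0.43 in D3W against Dcon, beside 0.01 over all genes. Of 12 genes found of a list of formyl peptide receptor, related receptor and lipid mediator genes, 5 were tested and 0 passed in any comparison.

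Copines are another family of calcium-dependent membrane-binding proteins, and 10 of 11 were tested. CPNE5 (ENSDARG00000070919) separated traced from untraced cells: it averaged 0.886 ± 1.19 FPKM in D3W and 32.4 ± 9.14 FPKM in G3W (SD, n = 5 each), and 1.25 ± 1.18 FPKM in Dcon (SD, n = 5) and 40.3 ± 13.2 FPKM in Gcon (SD, n = 6). It was lower by 3.88 on the log2 scale in both, with SE 0.57 and adjusted p = 0.000167 at 3 weeks and SE 0.55 and adjusted p = 0.000418 without injury. In D8W it averaged 5.41 ± 3.89 FPKM (SD, n = 6) and in G8W 21.8 ± 11.9 FPKM (SD, n = 5), with a difference of -1.47 that did not pass. The V2a gene SOX14 was also lower in D3W than in G3W, by 3.16 (SE 0.66) on the log2 scale. No other copine passed, beside 1.29% of all genes called in D3W against G3W and 0.288% in Dcon against Gcon.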

How the data were processed

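RNA of sorted V2a interneurons was sequenced in 32 libraries, and per the labels' protocols the cDNA came from a kit for low input. The authors deposited 1 table of FPKM for 42370 genes. The build danRer11 and the tools HTSeq 0.9.1 and HISAT2 2.0.5 are listed, without roles, per the submitters' processing notes. No genome of that build was used here, so no positions or sequences are given.

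Gene lengths were inferred as the shortest that made all values of a gene whole within 0.01 fragments. That 99.9987% of values were whole is therefore fixed by this choice and does not test the lengths. For genes seen in few libraries the length, and with it the fragment number, can be too low. Recovered fragments summed to 99.96% to 99.99% of each inferred library total, which for D8W replicate 2 includes the factor of 2. Each library was scaled with a median-ratio factor (from 6387 genes that reached 1 FPKM in 28 or more libraries, pseudocount 0.1) and log2-transformed with a pseudocount of 1, so fold changes of low genes are understated. The 22552 genes that reached 1 FPKM in 5 or more libraries were tested. A single limma model (3.58.1, in R 4.3.3) with robust, trended empirical Bayes and 6 group means gave 9 pairwise comparisons and 2 interactions, two-sided, with Benjamini-Hochberg adjustment over all genes and calls under 0.05. Levels of groups use the FPKM as the authors deposited them. The method was run on simulated data made by reshuffling deviations across all libraries, and only the bias of the differences was checked. Reshuffling does not keep a spread particular to a group, so it does not test calls near the threshold here. The rest used matplotlib 3.10.9, scipy 1.17.1, pandas 2.3.3 and numpy 2.4.6 in Python 3.11.15.

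Every member was named, with partner genes by count and by value where called, and the 4 genes most correlated with each of the 3 highest members; some of these and some marker values are not reported here. The members and lists were chosen with earlier results of these data known. ANXA3, listed in the gene tables with a synonym of the a paralogue, was included because the suffix rule counts it. Alternatives were a pseudocount of 0.1, no filter, unscaled FPKM, quantile normalization, weights per library, a fit of the compared groups alone, a replicate block, and leaving out each library. Added after seeing the data were limma-voom on recovered fragments, detected genes as a covariate, and leaving out both libraries with the fewest genes, or D8W replicates 1 and 6. Replicate numbers showed no sign of pairing the samples: of 15 same-numbered D and G pairs, 0 had deviations correlated above 0.1. Such a check cannot exclude that same-numbered libraries share fish.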

Additional observations from a re-analysis of the deposited data

Results flagged for a closer look

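Of 54 groups of 5 or 6 libraries of the 9 tested members, 14 held a library far from the others (a gap to the nearest value above 0.71 of the range with 5 libraries, or 0.625 with 6). Chance gives such a gap in about 1 in 20 groups of normally spread values, and levels with many zeros are not spread so. Values are FPKM with the nearest library of the group beside them.

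Among traced cells, D8W replicate 1 stood out in 3 genes: anxa3b was at 153 FPKM there (nearest 42.7), ANXA11 (ENSDARG00000002632) at 96.1 (nearest 41.1) and ANXA11 (ENSDARG00000077383) at 34.9 (nearest 8.97). In D3W, anxa5b was at 52.0 FPKM in replicate 5 (nearest 12.7) and anxa13 at 54.9 in replicate 2 (nearest 36.7). In Dcon, ANXA1 was at 1.65 FPKM in replicate 3 (nearest 0.403), anxa5b at 1.75 in replicate 5 (the others at 0) and anxa13 at 49.6 in replicate 2 (nearest 67.9), the only one of the 14 that lay low.

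Among cells without tracer, G3W replicate 1 had 18.01 FPKM of anxa5b (nearest 4.46) and replicate 2 had 8.19 FPKM of ANXA6 (nearest 2.16). G8W replicate 2 had 30.3 FPKM of ANXA1 (nearest 5.84) and 21.6 FPKM of anxa5b (nearest 7.32). Gcon replicate 3 had 44.2 FPKM of ANXA4 (nearest 4.94) and 12.3 FPKM of ANXA6 (nearest 4.55). The pair of D8W libraries with the highest ANXA2 is not in this set, because each is the other's nearest neighbour. No annexin passed over all genes in either interaction.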

How the results depend on the processing

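The number of called annexins in D3W against Dcon was 1 (ANXA1) and became 0 without a filter, on unscaled FPKM, after quantile normalization, with weights per library, in a fit of D3W and Dcon alone, with a replicate block, and without both libraries with the fewest genes. It was 2 (ANXA1 and ANXA2) without D8W replicates 1 and 6, and 0 to 1 when single libraries were left out. Those D8W libraries were picked for their high ANXA2 and are not in this comparison, so the added call of ANXA2 is no support. It was 1 in Dcon against Gcon with voom (anxa13, adjusted p = 0.04996), against 0. In the other comparisons it was 0 in every alternative run, single libraries left out included. Of 2340 member estimates under alternatives 167 changed sign, none of them among the differences named here with an unadjusted p under 0.05. ANXA1 in D3W against Dcon kept its direction in all 21 alternatives, at 3.63 to 7.94, and lost its call in 15, with adjusted p up to 0.342. ANXA2 in D3W against Dcon ran between 3.72 and 6.89. CPNE5 kept both calls in every alternative. Mean levels moved by more than 1 SD with scaled FPKM in 2 of 54 cases (anxa13 in Dcon and G3W).

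Calls over all genes moved more. With no filter they were 58 in D3W against Dcon (178 in the model reported), 7 in D8W against Dcon (14), 4 in D8W against D3W (9), 8 in G3W against Gcon (21), 2 in G8W against Gcon (7), 6 in D8W against G8W (15), 35 in Dcon against Gcon (65) and 0 in the 3-week interaction (1). With FPKM as deposited they were 5 in D8W against D3W, 38 in G3W against Gcon, 2 in G8W against G3W (1), 750 in D3W against G3W (290), 35 in D8W against G8W and 157 in Dcon against Gcon. With quantile normalization they were 23 in D8W against Dcon, 5 in D8W against D3W and 0 in G8W against G3W. With array weights they were 85 in D3W against Dcon, 3 in D8W against D3W, 112 in G3W against Gcon, 87 in G8W against Gcon, 16 in G8W against G3W, 23 in D8W against G8W, 147 in Dcon against Gcon and 2 in the 8-week interaction (0).

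With only the groups compared they were 15 in D3W against Dcon, 1 in D8W against D3W, 0 in G8W against G3W, 115 in D3W against G3W, 9 in D8W against G8W and 40 in Dcon against Gcon. With the replicate block they were 11 in G3W against Gcon and 1 in G8W against Gcon, and within 1.5 times elsewhere; deviations of same-numbered D and G libraries correlated at -0.0839 to 0.0725, and 3 of 15 were closest to their own number. With voom they were 65 in D8W against Dcon, 19 in D8W against D3W, 133 in G3W against Gcon, 37 in G8W against Gcon, 3 in G8W against G3W, 453 in D3W against G3W, 372 in Dcon against Gcon and 2 in the 3-week interaction. With detected genes as a covariate they were 5 in D8W against D3W, 8 in G3W against Gcon, 28 in D3W against G3W, 6 in D8W against G8W, 38 in Dcon against Gcon and 0 in the 3-week interaction. Without both libraries with the fewest genes they were 20 in D3W against Dcon, 47 in D8W against Dcon, 4 in D8W against D3W, 11 in G3W against Gcon, 56 in D3W against G3W, 28 in D8W against G8W, 124 in Dcon against Gcon and 0 in the 3-week interaction. Without D8W replicates 1 and 6 they were 6 in D8W against Dcon and 5 in G8W against G3W.

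Leaving out single libraries gave 59 to 570 calls in D3W against Dcon, 5 to 33 in D8W against Dcon, 3 to 49 in D8W against D3W, 8 to 18 in G3W against Gcon, 2 to 7 in G8W against Gcon, 0 to 3 in G8W against G3W, 145 to 274 in D3W against G3W, 7 to 26 in D8W against G8W, 20 to 93 in Dcon against Gcon, and 0 to 2 and 0 to 1 in the interactions. The causes were not tested. The scaling moved the median of all genes: in D3W against G3W it was -0.26 as reported, -0.58 as deposited and 0.00 with quantile normalization, in Dcon against Gcon -0.15, -0.31 and 0.01, and in D8W against Dcon 0.19, 0.02 and 0.01, so member differences should be read relative to these. Called genes split into 111 higher and 67 lower in D3W against Dcon, but into 57 and 100 as deposited and 69 and 58 with quantile normalization, and in D8W against Dcon into 9 and 5, but 6 and 13 as deposited. Library totals and the spread between libraries, with 0 beside high levels in the same group, both limit the member differences. The totals were 13.2 M fragments or more, with that of D8W replicate 2 multiplied by 2.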
